A study of Arabidopsis thaliana with 56 samples.

Results

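The group III genes of the WRKY transcription factor (TF) family were followed across TF expression experiments in Arabidopsis (Arabidopsis thaliana, Col-0) root cells. The 10 genes were WRKY70 (AT3G56400), WRKY54 (AT2G40750), WRKY55 (AT2G40740), WRKY53 (AT4G23810), WRKY46 (AT2G46400), WRKY30 (AT5G24110), WRKY41 (AT4G11070), WRKY38 (AT5G22570), WRKY62 (AT5G01900) and WRKY63 (AT1G66600). The members were taken by gene identifier and are 10 of the 33016 genes in each count file. The rule itself used no measured value, but the members were chosen with earlier results of these data known. The experiments used the TARGET assay, in which root protoplasts (cells freed of their walls) receive a plasmid that encodes a single TF fused so that dexamethasone (DEX) lets it enter the nucleus, or an empty vector (EV) as the control. Roots came from seedlings 10 days old, and all cells of every group, EV included, were given 35 µM cycloheximide (CHX), an inhibitor of protein synthesis, ahead of 10 µM DEX, and were then sorted for the fluorescent marker of the vector. Counts per gene from RNA-Seq were available for 56 libraries in 3 batches, namely 9 EV libraries (3 in each batch) and 47 libraries of 13 TFs. Batch 1 held ABF1, FBH3, HSFA6A and ZAT6, batch 2 held DIV2, GBF2, HSFA6A, MYB3, MYBR1 and WRKY33, and batch 3 held ABF3, DREB2A, FBH3, GBF2, GBF3 and HB7, each with 3 libraries except ABF3 with 2. The libraries of a group came from wells filled from a shared transfection, so the p-values below measure the spread between wells. The TFs were expressed from a plasmid above their native level, and the levels described are those of CHX-treated cells, since no library here lacked CHX.

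WRKY proteins bind W-boxes, short DNA elements with the core TTGAC, through a domain that carries the sequence for which the family is named and a zinc finger. Group III members have a single such domain with a zinc finger of the C2HC type, and many of them are known as rapid transcriptional responders to salicylic acid (SA), pathogens and oxidative stress. Their own promoters are often rich in W-boxes, and members are known to regulate one another in leaf senescence and defense. WRKY70 is a switch between SA and jasmonate signaling, and WRKY54 is its closest relative and acts with it. WRKY53 promotes leaf senescence, WRKY46 acts in SA responses and in stomatal and root responses to drought, and WRKY38 and WRKY62 are negative regulators of basal defense. WRKY63, also named ABO3, acts in the response to abscisic acid (ABA).

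The windows of 250 bp ahead of the annotated start of each gene were read from the genome in RefSeq's TAIR10.1 assembly. The 6 of the 10 shown belong to the members called with TF WRKY33, with or without EV batch 3 replicate 1. The window of WRKY46, which is also among the most abundant members, is not shown and held 0 W-boxes. W-boxes, searched as TTGACC or TTGACT on both strands, are in capitals (on the opposite strand they read GGTCAA or AGTCAA). The windows, 5′ to 3′ on the strand of the gene, are as follows.
WRKY55, chr2:16996828-16997077, plus strand: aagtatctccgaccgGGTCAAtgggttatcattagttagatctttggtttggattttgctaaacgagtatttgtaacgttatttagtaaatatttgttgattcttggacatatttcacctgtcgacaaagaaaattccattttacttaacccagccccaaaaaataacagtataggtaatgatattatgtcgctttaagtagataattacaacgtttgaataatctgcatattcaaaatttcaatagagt
WRKY53, chr4:12393983-12394232, minus strand: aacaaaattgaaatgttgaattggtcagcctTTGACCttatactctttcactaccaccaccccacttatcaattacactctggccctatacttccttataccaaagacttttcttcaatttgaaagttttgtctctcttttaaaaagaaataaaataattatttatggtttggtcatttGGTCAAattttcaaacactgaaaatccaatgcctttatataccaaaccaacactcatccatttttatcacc
WRKY41, chr4:6758848-6759097, plus strand: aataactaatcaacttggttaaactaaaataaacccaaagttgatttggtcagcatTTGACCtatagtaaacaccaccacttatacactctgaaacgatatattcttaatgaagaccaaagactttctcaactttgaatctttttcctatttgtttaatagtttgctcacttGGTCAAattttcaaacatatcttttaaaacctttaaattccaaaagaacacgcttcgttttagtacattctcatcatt
WRKY30, chr5:8154711-8154960, minus strand: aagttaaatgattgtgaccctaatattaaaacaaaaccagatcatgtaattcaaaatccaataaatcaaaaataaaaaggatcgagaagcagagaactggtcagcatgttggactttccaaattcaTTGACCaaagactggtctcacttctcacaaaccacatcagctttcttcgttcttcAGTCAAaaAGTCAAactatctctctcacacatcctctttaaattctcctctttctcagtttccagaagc
WRKY38, chr5:7496991-7497240, minus strand: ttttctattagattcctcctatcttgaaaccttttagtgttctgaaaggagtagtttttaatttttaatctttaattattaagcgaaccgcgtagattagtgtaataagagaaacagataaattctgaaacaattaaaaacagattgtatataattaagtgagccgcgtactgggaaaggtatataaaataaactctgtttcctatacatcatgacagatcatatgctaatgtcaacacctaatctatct
WRKY63, chr1:24848070-24848319, plus strand: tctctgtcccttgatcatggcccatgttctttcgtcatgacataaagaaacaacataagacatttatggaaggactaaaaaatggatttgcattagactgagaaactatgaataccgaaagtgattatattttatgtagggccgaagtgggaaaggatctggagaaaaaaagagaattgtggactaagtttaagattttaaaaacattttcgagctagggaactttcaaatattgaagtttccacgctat

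WRKY53 and WRKY41 each had 2 W-boxes, 1 on either strand, at 66 to 71 bp and 214 to 219 bp ahead of the start of WRKY53 and at 73 to 78 bp and 189 to 194 bp ahead of that of WRKY41. WRKY30 had 3, at 56 to 61, 64 to 69 and 119 to 124 bp. WRKY55 had 1, at 230 to 235 bp, and WRKY62 had 2, at 86 to 91 and 227 to 232 bp. No match lay in the windows of WRKY70, WRKY54, WRKY46, WRKY38 or WRKY63. Thus 5 of the 10 windows held a W-box and 4 held at least 2, whereas among 27438 windows of the genome 28.41% held at least 1 and 6.18% at least 2. The G-box CACGTG, the element of bZIP factors such as GBF2 and ABF1, was in 6.49% of all windows and in 0 of the 10. The element AATNATT, bound by HD-Zip class I factors such as HB7, was in 30.51% of all windows and in 3 of the 10. These matches describe the letters of the windows and say nothing of binding in these cells.

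The genes lie apart on the 5 chromosomes except for a pair on chromosome 2. WRKY55 (chr2:16997078-16999499, plus strand) and WRKY54 (chr2:17000419-17002528, minus strand) are neighbors that face each other tail to tail. WRKY63 lies near its relatives WRKY64 and WRKY67 on chromosome 1, and how reads shared by such copies were counted is not given in the sources used here. WRKY53 (chr4:12392370-12393982) shares 341 bp at its end with AT4G23800 (3xHMG-box2) on the opposite strand, and WRKY41 (chr4:6759098-6760794) shares 517 bp with AT4G11080 (3xHMG-box1) in the same arrangement. Whether the authors' counting used strand is not given in the sources used here, so reads in these overlaps cannot be assigned with certainty. Across the 9 EV libraries 3xHMG-box2 had 4.40 ± 1.70 CPM (mean ± SD of the count scaled to a common library size), far below WRKY53, and 3xHMG-box1 had 47.2 ± 17.7 CPM.

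Library totals ran from 8619133 to 29763752 counts (median 17460033), of which loci that match ribosomal RNA took 0.996 to 78.1%. The plasmid-borne TF was above every EV library of its batch in all its libraries in 16 of 16 comparisons, by the least for WRKY33 at 2.04-fold. The labels name root protoplasts, and 10 root marker genes summed to 35.2 to 79.8 CPM in EV and 29.4 to 281 CPM in TF libraries. Endodermis genes led that list (SCR 18.6, MYB36 14.8 and CASP1 10.6 mean CPM in EV), while the root hair genes COBL9 and EXPA7 and the epidermal gene WER were near 0, and 6 genes of green tissue summed to at most 1.95 CPM in EV and 12.1 CPM in TF libraries. EV batch 3 replicate 1 stood apart from its group, with a mean correlation of 0.847 with the other EV libraries of batch 3 over 14293 genes. The next lowest were the GBF2 libraries of batch 2, at 0.874 to 0.878 with their own group. Each of these was closer on average to another group (0.892 to 0.904), as were the ZAT6 libraries. EV batch 3 replicate 1 also had 3701 CPM of LFY, against 25.5 to 1028 CPM in the other 19 libraries of batch 3 and 0 to 24.6 CPM in the 36 of batches 1 and 2. It enters the batch 3 comparisons as a control and all others through the shared estimate of spread. Results on the members below are therefore also given without it, by value for some comparisons and otherwise only as counts of calls.

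In EV cells the members covered a range from genes among the most abundant in the cell to genes at the limit of detection. Levels between genes were compared as CPM per kilobase of exon. WRKY30, a gene known for its response to reactive oxygen species, was at the top with a median of 1185 CPM per kb over the 9 EV libraries (519 to 1487), which placed it at percentile 99.9 of 27575 genes. WRKY53 followed at 515 (310 to 670), WRKY46 at 437 (249 to 708) and WRKY41, a gene with roles in seed dormancy and immunity, at 313 (193 to 445). The ranges of these 4 genes overlapped between neighbors in this order, although WRKY30 was above WRKY53 in 9 of 9 libraries, WRKY53 above WRKY46 in 7 and WRKY46 above WRKY41 in 6. WRKY55, which promotes SA accumulation and senescence in leaves, stood below them without overlap at 98.0 CPM per kb (61.1 to 112). After another gap came WRKY38 at 22.5 (7.74 to 27.3) and WRKY70 at 15.8 (7.31 to 23.7), whose ranges overlapped. WRKY63 was lower again at 4.78 CPM per kb (2.31 to 6.73). WRKY54 (0.394, 0 to 0.654) and WRKY62 (0.190, 0 to 1.47) came last with overlapping ranges, and both were at 0 counts in EV batch 3 replicates 1 and 3. The close relatives WRKY70 and WRKY54 were thus separated by a gap in level, and so were WRKY38 and WRKY62.

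**Figure D1:**
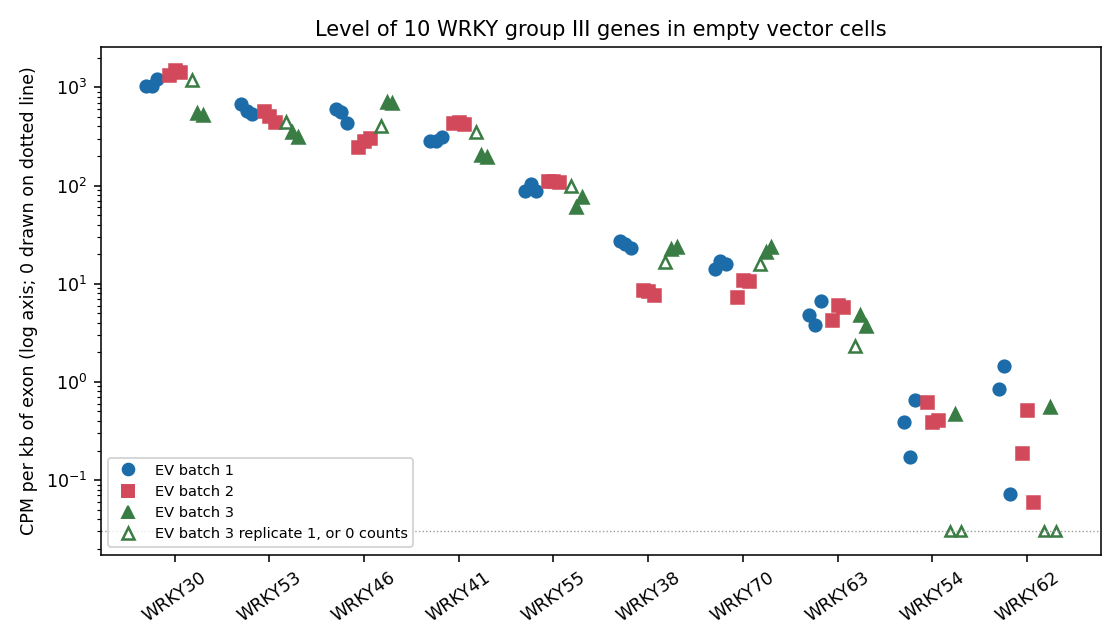
Level of each member in the 9 EV libraries, in CPM per kilobase of exon on a log axis, colored by batch. Points on the dotted line had 0 counts and the open triangle is EV batch 3 replicate 1. The 4 upper genes have medians of 313 to 1185, and WRKY54 and WRKY62 lie at or under 1.47.

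The EV cells of the 3 batches were not alike for these genes. WRKY38 had 35.7, 33.4 and 30.1 CPM in EV of batch 1, 11.2, 11.03 and 10.1 in batch 2 and 22.0, 29.4 and 31.1 in batch 3, so that batch 2 lay below both others without overlap. The difference between batch 2 and batch 1 was −1.63 on the log2 scale (FDR = 0.000485, where FDR is the Benjamini-Hochberg adjusted p of edgeR's quasi-likelihood test). WRKY46 was also lowest in batch 2, with 823, 761 and 592 CPM in batch 1, 337, 385 and 410 in batch 2 and 545, 959 and 937 in batch 3 (batch 2 against batch 1 −0.95, FDR = 0.0123). WRKY70 had 21.0, 25.2 and 23.5, then 10.7, 15.9 and 15.5, then 23.2, 30.7 and 34.8 CPM (batch 2 against batch 1 −0.73, FDR = 0.0415). The WRKY70 call was lost without any 1 of the 6 EV libraries and the WRKY46 call without replicate 1 or 2 of either batch. These 3 were the members called between batches 1 and 2, where 9.5% of all genes tested were called. Between batches 3 and 2 the same 3 genes were higher in batch 3, by 1.37 for WRKY38, 1.13 for WRKY46 and 1.096 for WRKY70, and WRKY41 was lower (−0.77, a call lost without any library but EV batch 3 replicate 1), which made 4 members called against 7.56% of all genes. Without EV batch 3 replicate 1 there were 7 against 18.7%, the additional ones being WRKY55, WRKY53 and WRKY30, all lower in batch 3. Between batches 3 and 1 only WRKY53 was called (−0.67, FDR = 0.0404, with 2.35% of all genes called), and without that library 4 members were (WRKY55, WRKY53, WRKY30 and WRKY41, all lower in batch 3, with 6.71% of all genes called). The WRKY53 call was lost without any other of the 6 EV libraries. Because these are bulk samples, fewer expressing cells and less RNA per cell cannot be told apart in any of these values.

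**Figure D2:**
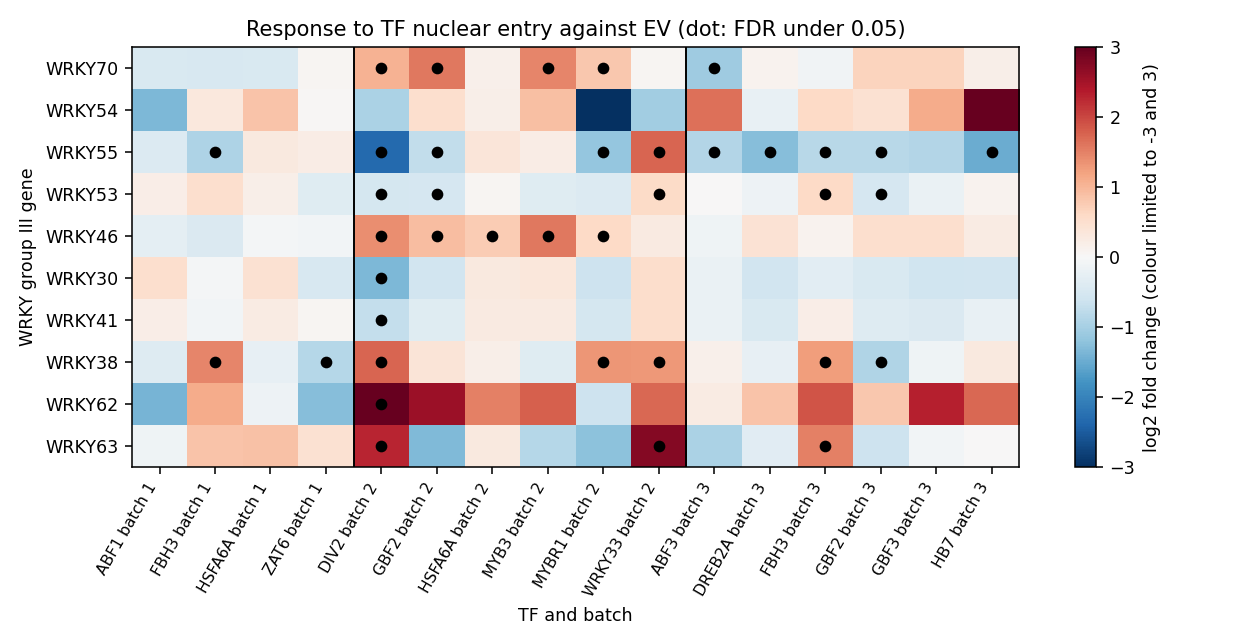
Log2 fold change of each member (rows) in each TF comparison (columns) against EV, with the color scale limited to −3 and 3. A dot marks an FDR under 0.05. The row of WRKY55 is mostly negative with a positive value at WRKY33, and the column of DIV2 has 9 dots.

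Against EV, 38 of the 160 pairs of a member and a comparison passed an FDR of 0.05, of which 21 were TF-induced and 17 TF-repressed. This is 23.8% of the pairs, compared with 5.93% of the 306608 pairs over all genes and 15.9% of 854 pairs for the 62 other WRKY genes. The comparisons of a batch share their 3 EV libraries, so pairs in a batch are not independent of one another. WRKY55 was called most often, in 10 of 16 comparisons (1 higher, 9 lower), followed by WRKY38 in 7 (5 higher, 2 lower). WRKY70 (4 higher, 1 lower), WRKY46 (5 higher) and WRKY53 (2 higher, 3 lower) were each called in 5, WRKY63 in 3, all higher, and WRKY30, WRKY41 and WRKY62 in 1 each. WRKY54 passed in 0 comparisons. Without EV batch 3 replicate 1 the number of pairs rose from 38 to 57, which included all 38 with the same sign, and calls over all genes rose as well in 16 of 16 comparisons. Most of the gain was in WRKY30 (from 1 to 8 comparisons), WRKY41 (1 to 7) and WRKY53 (5 to 8). Without EV batch 3 replicate 1, WRKY30 was called higher in 4 and lower in 4. For WRKY41 these counts were 4 and 3, for WRKY53 3 and 5, and for WRKY63 3 and 1.

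WRKY55 fell with TFs of every batch and rose with WRKY33. In batch 2 EV had 133, 135 and 129 CPM, DIV2 had 25.8, 25.9 and 28.0, MYBR1 had 47.8, 53.8 and 74.4, and GBF2 had 48.8, 104 and 87.6. The 3 groups lay wholly below EV. DIV2, a MYB-like factor, lowered WRKY55 to 26.6 ± 1.201 CPM against 132 ± 2.84 in EV (SD, n = 3 each), a log2 fold change of −2.34 (SE 0.16, FDR = 8.95e-08). MYBR1, also known as MYB44, gave −1.16 (FDR = 0.000363) and GBF2, a bZIP factor of the G-box binding class, −0.73 (FDR = 0.0377), a call that was lost in 5 of the 6 fits without 1 library, kept only without GBF2 replicate 2. WRKY33, a regulator of camalexin synthesis and of defense against necrotrophs, took the gene the other way, to 368, 423 and 542 CPM, all above EV (log2 fold change 1.75, SE 0.17, FDR = 6.16e-06). The levels with HSFA6A and MYB3 of the same batch were 153 to 183 and 137 to 164 CPM, neither called. For HSFA6A the estimate was 0.35, and it passed the test without EV batch 3 replicate 1 (0.36, FDR = 0.0471).

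In batch 1 the EV libraries had 105, 125 and 105 CPM of WRKY55 and the FBH3 libraries 55.7, 66.5 and 54.8. This bHLH factor lowered the gene by −0.93 on the log2 scale (SE 0.17, FDR = 0.00267), and in batch 3, with 49.6, 53.4 and 53.7 CPM, by −0.84 (FDR = 0.00169). All 17 TF libraries of batch 3 were at 27.4 to 63.5 CPM, under the 3 EV libraries of that batch at 118, 73.4 and 90.8. The drop was called for 5 of the 6 TFs there, at −0.84 for FBH3 and for GBF2 (FDR = 0.00279), −0.89 for ABF3 (FDR = 0.0135), −1.27 for DREB2A (FDR = 0.000352) and −1.48 for HB7 (FDR = 4.7e-05). Without EV batch 3 replicate 1, the highest of the 3, the values were −0.66 for FBH3, −0.71 for GBF2, −0.70 for ABF3, −1.097 for DREB2A and −1.33 for HB7, and all 5 stayed called. The ABF3 call was lost when either ABF3 library was left out (FDR = 0.124 and 0.135) and with EV of batch 3 as the only control (FDR = 0.244). When each TF was set against the remaining TFs of its batch instead of against EV, the estimates for FBH3, GBF2 and ABF3 turned positive, at 0.22, 0.22 and 0.15, and none of the 5 was called. In batch 3 WRKY55 was thus lower in every TF library than in EV, whichever TF the cells expressed. The DIV2, WRKY33 and batch 1 FBH3 calls were kept with that control, at −2.81, 2.20 and −0.98, and those of MYBR1 (−1.59, FDR = 0.528) and of GBF2 in batch 2 (−1.101, FDR = 0.55) were lost.

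**Figure D3:**
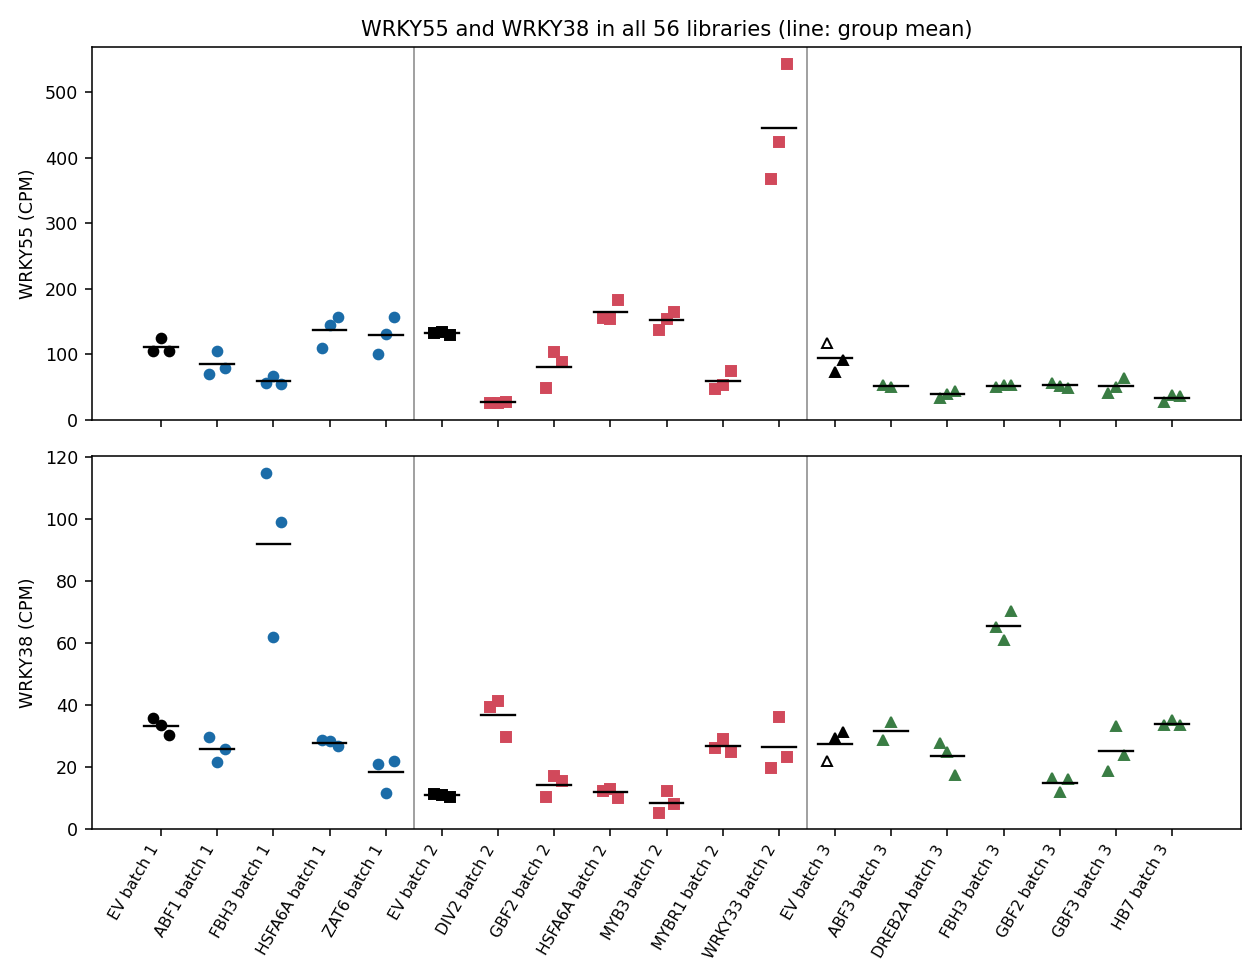
CPM of WRKY55 and WRKY38 in all 56 libraries by group and batch, each point a library and each line the group mean, with the axis from 0 and EV batch 3 replicate 1 as an open triangle. WRKY55 reaches 368 to 542 with WRKY33 and 25.8 to 28.0 with DIV2, and WRKY38 is highest with FBH3 in batch 1.

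WRKY38 rose with FBH3 in both batches in which that TF was run. In batch 1 the FBH3 libraries had 115, 61.9 and 98.9 CPM against the 30.1 to 35.7 of EV, and in batch 3 they had 65.1, 60.9 and 70.3 against 22.0 to 31.1. The log2 fold changes were 1.46 (SE 0.21, FDR = 0.000304) and 1.25 (SE 0.15, FDR = 5.41e-05), or 1.11 in batch 3 without EV replicate 1. The difference between the batches was −0.17 ± 0.27 (SE) and did not pass the test. In batch 2 the gene rose from 10.1 to 11.2 CPM in EV to 39.2, 41.3 and 29.6 with DIV2 (1.74, FDR = 4.99e-06), 26.1, 29.1 and 24.8 with MYBR1 (1.32, FDR = 6.25e-05) and 19.8, 36.2 and 23.3 with WRKY33 (1.29, FDR = 0.001). Set against the remaining TFs of batch 2, none of these 3 was called, at 1.03, 0.45 and 0.46, whereas FBH3 was in both batches, at 1.94 and 1.38. The TFs that lowered WRKY38 were the zinc finger factor ZAT6 in batch 1 (21.0, 11.6 and 22.0 CPM, −0.86, FDR = 0.0439) and GBF2 in batch 3 (16.5, 12.03 and 16.0 CPM, −0.90, FDR = 0.00461, and −1.09 without EV replicate 1). The ZAT6 call was lost without EV batch 1 replicate 1, 2 or 3 or ZAT6 replicate 2 (log2 fold changes of −0.93 to −0.62). The GBF2 call of batch 3 was lost with EV of batch 3 as the only control (−0.90, FDR = 0.0585). It was also lost with the replicate number as a block (−0.89, FDR = 0.0889) and with both GBF2 batches pooled (−0.27, FDR = 0.522). In batch 2 GBF2 left WRKY38 at 10.2, 16.9 and 15.3 CPM (0.38, not called), and the response of this gene to GBF2 differed between batches 3 and 2 by −1.29 (SE 0.30, FDR = 0.0123, with 6.26% of all genes called for such a difference). Of the 7 root markers tested, GBF2 had 3 lower in batch 2 and 1 higher in batch 3, and FBH3 had 2 higher in each of its batches. With FBH3 in batch 1, 1 of 2 tested genes of green tissue was also higher. Their part in the results on WRKY38 was not tested.

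WRKY46 and WRKY70 rose together in batch 2. EV of that batch had 337, 385 and 410 CPM of WRKY46, compared with 1070, 1117 and 1160 with MYB3, 887.8, 1036 and 1085 with DIV2, 791, 639 and 750 with GBF2, 631, 593 and 637 with HSFA6A and 565, 556 and 570 with MYBR1. Every library of these 5 TFs was above every EV library. MYB3, a repressor of phenylpropanoid genes, gave the largest log2 fold change of the 5, 1.59 (SE 0.18, FDR = 3.05e-05), followed by DIV2 at 1.39 (FDR = 6.9e-05), GBF2 at 0.94 (FDR = 0.00301), HSFA6A at 0.76 (FDR = 0.0296) and MYBR1 at 0.59 (FDR = 0.0458). The HSFA6A and MYBR1 calls were lost in each of the 6 fits that left out 1 of their libraries or of EV batch 2, with estimates that stayed between 0.68 and 0.83 and between 0.52 and 0.65. WRKY33 libraries, at 407, 468 and 490 CPM, overlapped EV and were not called. None of the 5 calls was kept with the other TF libraries of batch 2 as the control, where the estimates were 0.75 for MYB3, 0.48 for DIV2, −0.058 for GBF2, −0.27 for HSFA6A and −0.50 for MYBR1. Calls over all genes fell with that control too, from 2028 to 153 for MYB3, 2409 to 152 for GBF2, 480 to 2 for HSFA6A and 2257 to 98 for MYBR1. Outside batch 2 WRKY46 was not called with all EV libraries. Without EV batch 3 replicate 1 WRKY46 passed as lower in 1 comparison, that of FBH3 in batch 1 (−0.42 with all EV libraries). In batch 1 it ranged from 592 to 823 CPM in EV and from 481 to 755 in TF libraries, and in batch 3 from 545 to 959 and from 673 to 1279. EV of batch 2 was the low one of the 3 batches, and the TF libraries of batch 2, at 407 to 1160 CPM, covered the range of EV in the others.

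WRKY70 had 10.7, 15.9 and 15.5 CPM in EV of batch 2 and rose with 4 of the TFs that raised WRKY46. It had 54.7, 24.8 and 48.3 CPM with GBF2 (log2 fold change 1.59, FDR = 0.000733), 42.6, 37.2 and 34.4 with MYB3 (1.46, FDR = 7.31e-05), 29.4, 28.4 and 30.2 with DIV2 (1.03, FDR = 0.000999) and 21.8, 24.8 and 26.7 with MYBR1 (0.81, FDR = 0.0115), all above EV. Set against the other TFs of batch 2 instead of EV, these estimates were 0.80, 0.62, 0.07 and −0.21, none called. WRKY33 left the gene at 12.7, 22.5 and 9.03 CPM, which overlapped EV. The single decrease was with ABF3, a bZIP factor of ABA signaling, in batch 3, where 2 libraries of 12.6 and 16.3 CPM lay below the EV levels of 23.2, 30.7 and 34.8 (−1.07, FDR = 0.0301, and −1.22 without EV replicate 1). This call was kept against the other TFs (−1.40, FDR = 0.0133) and lost when either ABF3 library, or EV batch 3 replicate 2 or 3, was left out. It was also lost with EV of batch 3 as the only control (−1.06, FDR = 0.222) and with the replicate number as a block (−0.93, FDR = 0.349). MYBR1's increase was lost without EV batch 2 replicate 1 (0.65, FDR = 0.0612).

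**Figure D4:**
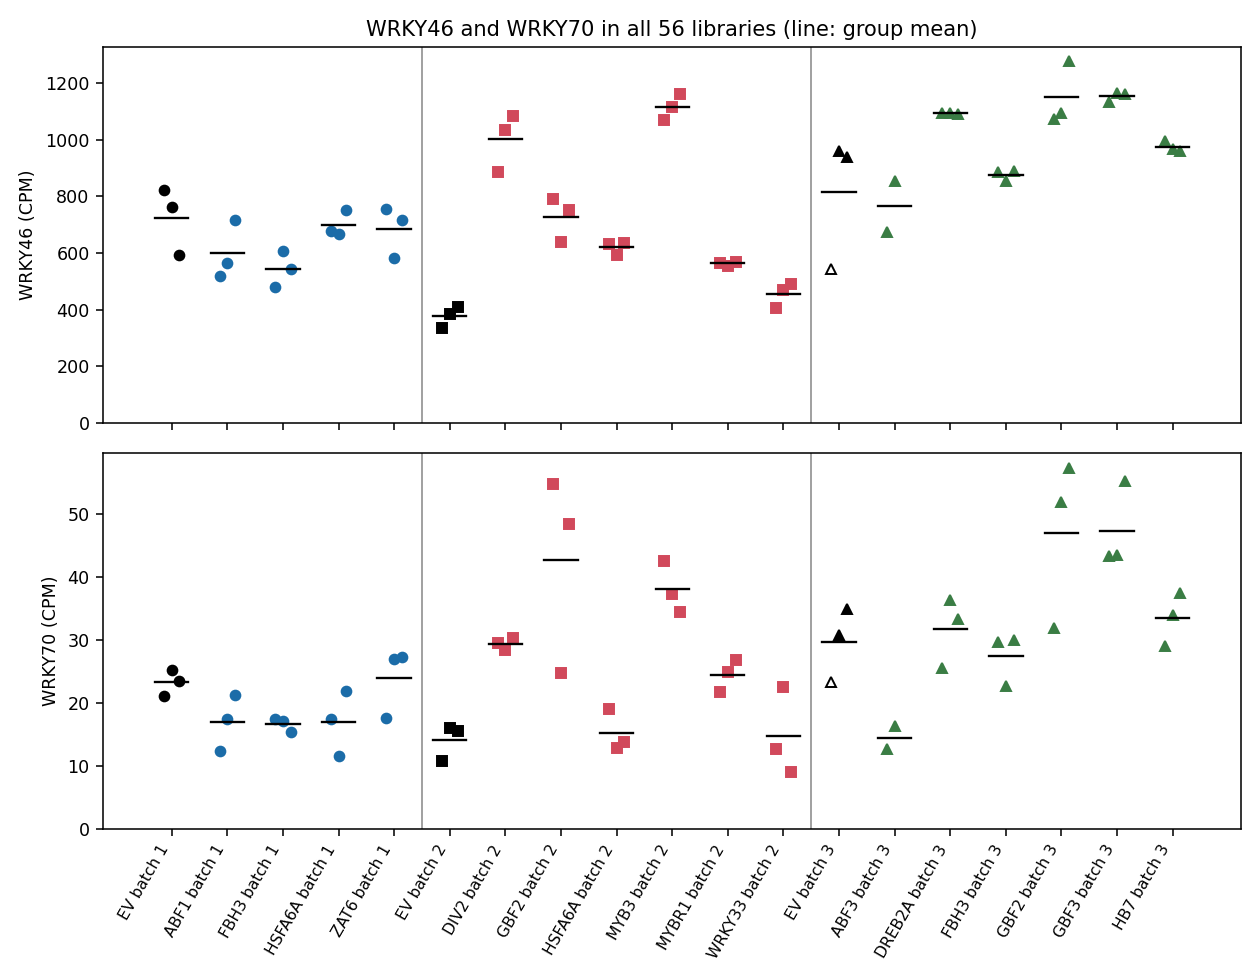
CPM of WRKY46 and WRKY70 in all 56 libraries by group and batch, drawn as in the plot of WRKY55 and WRKY38. In batch 2 the EV points, at 337 to 410 for WRKY46 and 10.7 to 15.9 for WRKY70, are at or near the bottom, and 17 and 14 of the 18 TF libraries lie above all 3 of them.

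WRKY53 had log2 fold changes from −0.54 to 0.60 over the 16 comparisons. It rose with WRKY33, from 874, 780 and 671 CPM in EV to 1224, 1066 and 1182 (0.58, SE 0.14, FDR = 0.0184), a call lost without WRKY33 replicate 1 or 3 or EV replicate 2 or 3 (0.50 to 0.58). It also rose with FBH3 in batch 3, from 678, 534 and 469 to 814, 883 and 844 CPM (0.60, FDR = 0.0149, and 0.75 without EV replicate 1). In batch 1 the FBH3 libraries had 1456, 1034 and 1385 CPM against 1014, 861 and 819 in EV, above EV in each case, with a log2 fold change of 0.52 that was not called (FDR = 0.0843) but was without EV batch 3 replicate 1 (0.47, FDR = 0.047). The gene fell with DIV2 to 525, 578 and 527 CPM (−0.54, FDR = 0.0124) and with GBF2 in both batches. GBF2 gave 575, 574 and 499 CPM in batch 2 (−0.51, FDR = 0.0242) and 416, 381 and 390 in batch 3 (−0.50, FDR = 0.0311), and the responses in the batches differed by −0.01 (SE 0.19, not called). With the other TF libraries as control the WRKY33 (0.93), batch 3 FBH3 (0.74) and batch 3 GBF2 (−0.62) calls were kept. The DIV2 call was lost without EV replicate 1 (−0.45, FDR = 0.0651), and the GBF2 calls of batch 2 (−0.49 to −0.42) and batch 3 (−0.54 to −0.48) and the batch 3 FBH3 call (0.49 to 0.60) were each lost in at least 3 of the 6 fits without 1 library. The overlapping 3xHMG-box2 was not called in any of the 16 comparisons.

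WRKY30 and WRKY41 were lower with DIV2, as WRKY55 was. DIV2 lowered WRKY30 from 1714, 1918 and 1867 CPM to 560, 760 and 890 (−1.34, SE 0.25, FDR = 0.00109) and WRKY41 from 505, 524 and 501 to 274, 311 and 356 (−0.72, SE 0.18, FDR = 0.00933). The WRKY41 call was lost without DIV2 replicate 1 (−0.63, FDR = 0.0504). Both calls were kept against the other TFs of the batch, at −1.42 and −0.83. These were the only calls of the 2 genes in the main comparison with EV. In EV batch 3 replicate 1 WRKY30 had 1529 CPM and WRKY41 417 CPM, against 703 and 669 and against 243 and 228 in the other EV libraries of that batch. Without that library the WRKY33 libraries, with 2228, 2715 and 3028 CPM of WRKY30 and 699, 677 and 818 CPM of WRKY41, passed as higher (0.55, FDR = 0.000525, and 0.54, FDR = 0.000213). With it the same comparisons gave 0.54 and 0.52 and an FDR of 0.251 and 0.106, so the estimate stayed and the spread between EV libraries changed. The same applied to MYBR1, where WRKY30 (935, 1274 and 1334 CPM) and WRKY41 (315, 384 and 358 CPM) lay below every EV library of batch 2 and passed as lower without it, at −0.63 and −0.53, but not with it (FDR = 0.121 and 0.0673). Both genes also passed with WRKY33 and with MYBR1 when EV of batch 2 was the only control. Further comparisons in which these genes passed without EV batch 3 replicate 1 are given only as counts. The overlapping neighbor of WRKY41 had an estimate of the same sign in 15 of 16 comparisons, the exception being FBH3 in batch 1 (−0.09 for WRKY41 and 0.60 for 3xHMG-box1). With DIV2 3xHMG-box1 had a log2 fold change of −0.71 (not called), with WRKY33 0.54 and with MYBR1 −0.63, beside −0.72, 0.52 and −0.52 for WRKY41, and whether reads of the shared 517 bp entered both counts was not tested.

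Among the 3 scarce members, WRKY63 gave the largest changes that rest on more than a few counts. It rose from 4.41, 6.17 and 5.91 CPM in EV of batch 2 to 26.6, 36.5 and 48.5 with WRKY33 (log2 fold change 2.76, SE 0.30, FDR = 2.26e-05) and to 24.5, 30.4 and 27.5 with DIV2 (2.30, SE 0.29, FDR = 3.79e-05). No other library of batch 2 came above 8.35 CPM. Set against the other TFs of batch 2, neither was called, at 2.19 for WRKY33 (FDR = 0.0586) and 1.37 for DIV2 (FDR = 0.344). In batch 3 FBH3 raised it from 2.36, 4.95 and 3.81 to 9.34, 9.98 and 12.6 CPM (1.51, FDR = 0.0108, and 1.28 without EV replicate 1), and in batch 1 the FBH3 libraries had 11.8, 2.86 and 13.9 CPM, 2 above and 1 below all of EV, which was not called (0.85). The FBH3 call of batch 3 was kept against the other TFs of that batch. It was lost with EV of batch 3 as the only control (1.52, FDR = 0.0528) and with the replicate number as a block (1.57, FDR = 0.167). Leaving out FBH3 replicate 3 also lost it (1.37, FDR = 0.0684). WRKY62 had 3, 12 and 1 counts in the EV libraries of batch 2 and 85, 69 and 81 with DIV2, or 0.207, 0.561 and 0.0657 CPM against 7.01, 5.74 and 5.65. The estimate of 4.36 (SE 1.28, FDR = 0.0254) rests on 16 counts in EV and was lost when DIV2 replicate 1 or 2 or EV replicate 1 or 3 was left out. WRKY54 had between 0 and 59 counts in every library. Its highest levels were with HB7 in batch 3 (54, 40 and 59 counts, against 0, 19 and 0 in EV), where it was not called, and at this depth no response of the gene was detectable.

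Read by TF, DIV2 moved the most members. Of the 10, 9 were called, 5 higher (WRKY70, WRKY46, WRKY38, WRKY62 and WRKY63) and 4 lower (WRKY55, WRKY53, WRKY30 and WRKY41), in a comparison in which 18.1% of all genes tested were called. The 4 that fell were 4 of the 5 most abundant members in EV. With the other TFs of batch 2 as control 4 of the 9 were called (WRKY55, WRKY30, WRKY41 and WRKY62), while calls over all genes fell from 3416 to 1897. WRKY33 raised 4 members (WRKY55, WRKY53, WRKY38 and WRKY63) and lowered 0, with 6.22% of all genes called, and the median of the 10 members was 0.56 compared with −0.04 for all genes. Of these 4 genes WRKY55 and WRKY53 have a W-box in the window of 250 bp and WRKY38 and WRKY63 do not. Of the 6 not called, WRKY30, WRKY41 and WRKY62 have W-boxes there and WRKY46, WRKY70 and WRKY54 do not. This split depends on EV batch 3 replicate 1, since WRKY30 and WRKY41 were also called higher without it. Then WRKY55, WRKY53, WRKY30 and WRKY41 were the called members with W-boxes, and WRKY62 the only one with them that was not called. GBF2 in batch 2 also called 4 (WRKY70 and WRKY46 higher, WRKY55 and WRKY53 lower, 12.8% of all genes), as did MYBR1 (WRKY70, WRKY46 and WRKY38 higher, WRKY55 lower, 11.9%). MYB3 called WRKY46 and WRKY70 (10.6%) and HSFA6A called WRKY46 (2.53%). Without EV batch 3 replicate 1 the members called were 9 for DIV2 (25.0% of all genes), 6 for WRKY33 (10.8%), 6 for GBF2 (17.3%), 8 for MYBR1 (17.2%), 5 for MYB3 (17.0%) and 4 for HSFA6A (6.75%).

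The batch 3 TFs called fewer members. FBH3 called 4 (WRKY53, WRKY38 and WRKY63 higher, WRKY55 lower) with 4.32% of all genes called, GBF2 called 3, all lower (WRKY55, WRKY53 and WRKY38, 8.85%), and ABF3 called WRKY70 and WRKY55 (1.81%). DREB2A, a factor of the drought and heat response, called WRKY55 alone (2.72%) and so did HB7, a class I HD-Zip factor (5.52%). In batch 1 FBH3 called WRKY38 and WRKY55 (6.24%) and ZAT6 called WRKY38 (3.19%). There were 0 members called by edgeR for ABF1 (0.495% of all genes), HSFA6A in batch 1 (0.0106%) and GBF3 (0.0157%). At an unadjusted p under 0.05 these had 2, 1 and 5 members (5.83%, 5.47% and 10.1% of all genes), and DESeq2 called 0, 0 and 2 (and 237, 113 and 296 of all genes). Without EV batch 3 replicate 1 the counts in batch 3 were 5 for FBH3 (6.1% of all genes), 3 for GBF2 (10.6%), 2 for ABF3 (3.74%), 1 for DREB2A (3.69%), 1 for HB7 (7.71%) and 0 for GBF3 (0.202%), and in batch 1 they were 4 for FBH3 (10.8%), 2 for ZAT6 (7.57%), 1 for ABF1 (1.43%) and 0 for HSFA6A (0.978%). FBH3 lowered WRKY55 and raised WRKY38 in both of its batches, and 0 members were called by edgeR for a difference between them (0.0254% of all genes, 1 member at an unadjusted p under 0.05 against 7.65% of all genes, and 0 by DESeq2), nor without EV batch 3 replicate 1 (0.113%). With all EV libraries WRKY38 alone was called for a difference between the GBF2 batches, and WRKY46 (−0.67) and WRKY30 (0.60) were called beside it without that library (8.04% of all genes). For HSFA6A the response of WRKY46 was −0.06 in batch 1 and 0.76 in batch 2, a difference of 0.82 that was not called (FDR = 0.0682, with 2.56% of all genes called). It was called without EV batch 3 replicate 1 (FDR = 0.000684, with 5.69% of all genes called) and with a replicate block (FDR = 0.000109).

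Other genes of the family and pathway were counted from fixed lists. Of the 62 other WRKY genes, 57 were tested in at least 1 comparison and 39 were called in at least 1. They were called in 136 of 854 tests, 55 higher and 81 lower. With DIV2 24 of 53 tested were called (8 higher, 16 lower), with MYBR1 19 of 53 (3 and 16), with GBF2 in batch 2 21 of 51 (3 and 18) and with WRKY33 15 of 53 (13 and 2, among them WRKY33 itself, which the plasmid carries). The 4 further group III genes were called in 10 of 60 tests, 6 of them WRKY66 and 4 WRKY67, while RRS1, an immune receptor with a WRKY domain, and WRKY64 were called in 0.

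Of 24 genes of SA synthesis and signaling, 50 of 322 tests were called (15.5%, 32 higher and 18 lower). EV itself differed between batches for this list, with 8 of 20 genes tested called against batch 1 (2 higher, 6 lower) in batch 2 and 7 called against batch 3, all lower in batch 2. The part of these EV differences in the calls of batch 2 was not tested. Over the 9 EV libraries PBS3 ranged from 28.2 to 226 CPM, SARD1 from 28.0 to 186, SIB1 from 2.82 to 15.4 and RD29A from 20.4 to 135. PBS3, an enzyme of SA synthesis, rose with all 6 TFs of batch 2, by 1.60 to 2.71 on the log2 scale. SARD1, a transcriptional activator of ICS1, rose with 5 of those 6, by 1.202 with HSFA6A up to 3.39 with MYB3. ICS1, which makes the precursor of SA, rose by 4.08 with WRKY33 and 1.84 with MYB3 and fell with ABF3 (−1.28) and DREB2A (−0.88). EDS1, a hub of immune signaling, fell in 7 comparisons, the lowest being −1.46 with DIV2. The SA marker genes PR1 and PR5 were too scarce to be tested in any comparison. Of 15 genes listed as partners and targets of WRKY proteins, 26 of 208 tests were called (12.5%, 19 higher and 7 lower). SIB1, which binds WRKY33, a protein outside the members, rose with 5 TFs of batch 2 (1.93 to 2.53) and fell with HB7 (−1.13). RD29A, a gene of the ABA and drought response, rose with all 6 TFs of batch 2 (0.83 to 2.48) and with DREB2A (1.61) and fell with FBH3 in batch 1 (−1.03). BIN2, a kinase that phosphorylates WRKY54, fell in 5 comparisons, by −0.49 with GBF2 in batch 3 to −0.80 with MYB3, and the catalase gene CAT3 rose with DIV2 (0.78) and HB7 (0.56).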

How the data were processed

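The authors deposited raw counts of reads per gene for each library, not normalized. Reads had been aligned to TAIR10 with HISAT2 2.0.5 and counted with GenomicFeatures and GenomicAlignments, and DESeq2 1.22.1 is named in the submitters' processing notes. The authors' filter on genes that respond to CHX was not applied here.

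Samples were grouped by TF and batch from their labels. Each TF group was compared with EV in edgeR 4.0.16 (R 4.3.3), with TMM normalization, filterByExpr (minimum count 10) and an additive batch term, over the TF's own libraries and the EV libraries of all 3 batches. Quasi-likelihood p-values were adjusted over all genes tested (Benjamini-Hochberg), and genes under 0.05 were called. CPM use TMM-scaled library sizes. Interaction terms tested the batch difference for FBH3, GBF2 and HSFA6A. The fits were tested on simulated data. Every member is named, and of the SA list and the list of partners and targets the 4 genes called in the most comparisons (ties by the larger median absolute log2 fold change). The other WRKY genes are given as counts. The members and lists were chosen with earlier results of these data known.

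Alternatives were DESeq2 1.42.0, its size factors, no filter, no rRNA-like loci, a control group restricted to the batch's EV, 1 model for all groups, the remaining TFs of the batch as the control group, a replicate block, pooled batches, leaving out each library and, chosen after seeing the data, leaving out EV batch 3 replicate 1 in all comparisons. Intervals and SEs do not cover differences between transfections.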

Additional observations from a re-analysis of the deposited data

Results flagged for a closer look

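The response of WRKY38, a negative regulator of basal defense, to GBF2 differed between the 2 batches in which this TF was run. GBF2 libraries had 10.2, 16.9 and 15.3 CPM of WRKY38 in batch 2, against 11.2, 11.03 and 10.1 in EV, and 16.5, 12.03 and 16.0 CPM in batch 3, against 22.0, 29.4 and 31.1 in EV. The GBF2 levels of the batches thus overlapped while those of EV did not. The log2 fold changes were 0.38 and −0.90, and the interaction term of edgeR gave a difference of −1.29 (SE 0.30, FDR = 0.0123), or −1.42 without EV batch 3 replicate 1 (FDR = 0.00268). Batch here means the batch named in the labels, and what differed between the batches was not tested.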

How the results depend on the processing

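The count of members called stayed at 0 in the fits that left out 1 library of the TF or of its batch's EV for ABF1, HSFA6A in batch 1 and GBF3, and for the FBH3 difference between batches. Leaving out each library gave 2 to 3 for FBH3 in batch 1 (3 without FBH3 replicate 2), 0 to 1 for ZAT6, 7 to 9 for DIV2, 2 to 4 for GBF2 in batch 2 (2 without EV batch 2 replicate 1 or 2), 0 to 0 for HSFA6A in batch 2, 2 to 2 for MYB3, 2 to 3 for MYBR1 (2 without EV batch 2 replicate 1), 3 to 4 for WRKY33, 0 to 2 for ABF3, 1 to 1 for DREB2A, 2 to 5 for FBH3 in batch 3 (2 without FBH3 replicate 3), 2 to 3 for GBF2 in batch 3 (2 without GBF2 replicate 2 or 3) and 1 to 2 for HB7 (2 without EV batch 3 replicate 2). It gave 1 to 3 for the GBF2 and 0 to 1 for the HSFA6A difference between batches (1 without EV batch 1 replicate 3), 1 to 2 for EV of batch 2 against 1, 0 to 4 for EV of batch 3 against 1 and 3 to 7 for EV of batch 3 against 2. Without EV batch 3 replicate 1 the counts were 1 for ABF1, 4 for FBH3 in batch 1, 2 for ZAT6, 4 for HSFA6A in batch 2, 5 for MYB3, 8 for MYBR1 and 1 for the HSFA6A difference. Calls over all genes moved in the fits without 1 library too. For HSFA6A in batch 2 they fell from 480 to between 163 and 242. For GBF2 in batch 2 they fell from 2409 to 1641 and 1527 without EV batch 2 replicate 1 and 2.

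DESeq2 called 2 members for GBF3, 2 for HB7 and 1 for the HSFA6A difference. DESeq2's size factors in edgeR gave 0 for ZAT6 and 2 for GBF2 in batch 2, with 588 and 2353 of all genes called. Leaving out rRNA-like loci gave 0 for ZAT6, with 606 of all genes called. Without a filter there were 7 for MYBR1, 1 for GBF3, 2 for the GBF2 difference and 1 for the HSFA6A difference. With EV of the same batch only there were 0 for ZAT6, 4 for HSFA6A in batch 2, 5 for MYB3, 8 for MYBR1, 0 for ABF3, 2 for FBH3 and 1 for GBF2 in batch 3. A single model gave 4 for FBH3 in batch 1, 2 for ZAT6, 7 for MYBR1 and 1 for GBF3. Pooling both batches of a TF gave 4 for FBH3, 0 for HSFA6A (2 of all genes called) and 5 for GBF2 (2015). Calls over all genes are not given here for the single model or for pooled FBH3. Those counts cannot be read as particular to the members. With the other TF libraries as control there were 2 for ZAT6, 4 for DIV2, 0 for GBF2 in batch 2, 0 for HSFA6A in batch 2, 0 for MYB3, 0 for MYBR1, 1 for ABF3, 0 for DREB2A and 0 for HB7. With that control 7 estimates changed sign, those of WRKY46 with GBF2 in batch 2 (−0.058), HSFA6A in batch 2 (−0.27) and MYBR1 (−0.50), of WRKY70 with MYBR1 (−0.21) and of WRKY55 with ABF3 (0.15), FBH3 in batch 3 (0.22) and GBF2 in batch 3 (0.22), and their cause was not tested. With EV of the same batch only, calls over all genes moved from 480 to 1434 for HSFA6A in batch 2. They moved from 2028 to 3580 for MYB3 and 364 to 109 for ABF3 with that control. Without a filter they moved from 2257 to 2400 for MYBR1 and 3 to 61 for GBF3.

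Same-numbered libraries had correlations of −0.0384 to 0.156 in their deviations, and no comparison had every pair over 0.1. These summary values cannot exclude pairing in single genes. In batch 2, for example, WRKY30 was lowest in replicate 1 of EV and of every TF. With the replicate number as a block the counts were 2 for ZAT6, 4 for HSFA6A in batch 2, 6 for MYB3, 8 for MYBR1, 7 for WRKY33, 0 for ABF3, 0 for DREB2A, 1 for FBH3 and 1 for GBF2 in batch 3 and 1 for the HSFA6A difference. Where the counts fell, calls over all genes fell as well, from 364 to 191 for ABF3 and 527 to 67 for DREB2A. In batch 3 they went from 835 to 372 for FBH3 and 1724 to 522 for GBF2. Where the counts rose, calls over all genes with this block are not given here. Those rises therefore cannot be read as particular to the members.

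WRKY54 (0 to 59 counts per library) and WRKY62 (0 to 85) were near the limit of detection, and apart from WRKY62 with DIV2 no response of theirs was detectable at this depth. The batch 3 comparisons rest on 3 EV libraries of which 1 stood apart, and ABF3 on 2 libraries.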

Other observations

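Genes whose levels ran most like those of each member were ranked by Pearson's r of log2 CPM over the 56 libraries, centered within each batch, among 18411 genes. Libraries share controls and TFs, so these values are descriptions and carry no test. WRKY55 was most like AGB1, the beta subunit of the heterotrimeric G protein (r = 0.93), the calcium-dependent kinase gene CPK7 (0.92) and AT3G13433 (0.92). WRKY53 ran with AAP5, an amino acid permease (0.92), WRKY7 (0.90) and NADP-ME2 (0.89), and WRKY41 with the receptor-like kinase gene CRK11 (0.92), LACS4 (0.91) and CAD1 (0.90). WRKY30 was closest to AT5G03610 (0.91), the ion channel gene CNGC3 (0.90) and PUB29 (0.89), and WRKY46 to AT1G15010 (0.86), ANAC087 (0.85) and AT3G04640 (0.84). For WRKY70 the list held PES2 (0.80), AT2G46600 (0.80) and SARD1 (0.78), and for WRKY38 AT5G57710 (0.81), CYP707A3, an ABA hydroxylase (0.79), and PMT5 (0.78). WRKY63 had AT4G18950 (0.79), STP4 (0.76) and MYB87 (0.76) at the top. The scarce WRKY54 and WRKY62 reached 0.69 with AT1G11120 and 0.59 with AT3G44150.

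Among the members themselves the closest pair was WRKY41 and WRKY30 (r = 0.85), followed by WRKY55 with WRKY41 (0.79) and with WRKY30 (0.77), and WRKY46 with WRKY70 (0.70). WRKY70 and WRKY53 ran opposite (−0.66), as did WRKY46 and WRKY53 (−0.60). WRKY54 and WRKY55, neighbors on chromosome 2, differed in level by the gap described above, and WRKY54 was too scarce for its r with WRKY55 to be read.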
